A study of Mus musculus with 4 samples.

Results

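The cluster of Mir322, Mir503, Mir351, Mir542, Mir450-2, Mir450-1 and Mir450b, with the overlapping long non-coding RNA gene C430049B03Rik, was followed in small RNA of mouse embryonic stroma. These 8 rows were picked by gene ID and name out of 2976 rows of the deposited table, 643 of them miRNA precursor genes, and the rule itself uses no measured level. The data came from 4 libraries of a single group: CD1 embryos at E10.5 of the genotype Tbx18-Cre;CAG-tdTomato, described as wild type. Cells of the peri-wolffian duct region were flow-sorted. In such embryos Cre is driven by Tbx18, and a red fluorescent reporter then marks the cells that expressed Tbx18 and their descendants, so the sort takes a lineage and not only cells with current Tbx18 expression. No other genotype, stage or tissue was available for comparison, and whether each library is a separate embryo or a pool is not stated in the labels. Spreads and p-values below therefore cover library-to-library differences, which may be technical.

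A miRNA cluster is a set of hairpins cut from a shared primary transcript. Each hairpin is trimmed to short mature strands, which guide repression of mRNAs that pair with the seed, bases 2 to 8 from the 5' end. miR-322 and miR-503 are known as regulators of cell cycle exit and of muscle and mesoderm differentiation in mice, and miR-322-5p has the seed of the miR-15/miR-16 family, which targets cyclins. miR-351 has the seed of miR-125, a family studied in development and blood cells, and miR-542 and miR-450 are further members of the same genomic cluster in mammals.

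The mature strands are shown because they tell which rows have sequence of their own and which share it. All 7 miRNA members matched the RefSeq table for GRCm38.p6, with 14 mature entries that hold 13 different sequences. All lie on the minus strand of chromosome X, and capitals mark the seed.
miR-322-5p: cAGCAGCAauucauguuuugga
miR-322-3p: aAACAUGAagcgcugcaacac
miR-503-5p: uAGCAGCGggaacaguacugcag
miR-503-3p: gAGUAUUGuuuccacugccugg
miR-351-5p: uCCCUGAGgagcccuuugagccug
miR-351-3p: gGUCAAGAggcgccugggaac
miR-542-5p: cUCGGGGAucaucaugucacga
miR-542-3p: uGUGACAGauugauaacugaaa
miR-450a-5p (from Mir450-2 and from Mir450-1): uUUUGCGAuguguuccuaauau
miR-450a-2-3p (Mir450-2): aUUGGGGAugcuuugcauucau
miR-450a-1-3p (Mir450-1): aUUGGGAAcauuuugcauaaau
miR-450b-5p: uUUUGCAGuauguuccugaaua
miR-450b-3p: aUUGGGAAcauuuugcaugcau

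By seed, miR-322-5p stood with 9 other mouse mature miRNAs, among them the miR-15, miR-16, miR-195 and miR-497 strands. The seed of miR-503-5p was shared with no other entry, and it differed from that of miR-322-5p only by A8G, counted from the 5' end with the miR-322-5p base first. Over their first 22 bases, set against each other position by position without gaps, these strands were identical at 11. miR-351-5p shared its seed with miR-125a-5p, miR-125b-5p and 2 further entries, and over 22 compared bases it matched miR-125b-5p at 10. Within the miR-450 group, miR-450a-1-3p and miR-450b-3p had the same seed and differed at 2 of 22 bases (A19G and A20C), whereas miR-450a-1-3p and miR-450a-2-3p differed at 6, of which 1 (A7G) lay in the seed. miR-450a-5p and miR-450b-5p differed at 7 of 22 bases, 2 of them in the seed (G7A and A8G). The 5p strands of Mir450-1 and Mir450-2 were identical, so a read of miR-450a-5p cannot be assigned to either gene by its sequence, while their 3p strands can.

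Along the transcribed strand the hairpins fell into separate stretches. Mir322 (gene ID 723907, chrX:53054255-53054349), Mir503 (723879, chrX:53053984-53054054) and Mir351 (723910, chrX:53053255-53053353) lay inside the RefSeq span of C430049B03Rik (72575, chrX:53053112-53057190). The gap was 200 bases between Mir322 and Mir503 and 630 bases between Mir503 and Mir351. Mir542 (723901, chrX:53049403-53049487) began 3624 bases beyond the 3' end of that span. It was followed after 1035 bases by Mir450-2 (723938, chrX:53048299-53048367), after another 54 by Mir450-1 (723869, chrX:53048154-53048244) and after another 75 by Mir450b (751532, chrX:53047997-53048078). From the first hairpin to the last the cluster covered 6353 bases. None of the 7 hairpins overlapped a GENCODE vM21 exon of C430049B03Rik or of Gm28730, a long RNA on the same strand. Exon sequence of Gm28730 does overlap the RefSeq span of C430049B03Rik.

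Values are deposited TPM: a gene's reads over its length, set against a total that also took in genes not used here. Reads behind each miRNA row could be recovered from TPM and hairpin length, since 100% of nonzero values were whole multiples of a constant per library within 0.01. Libraries 1 to 4 held 883201, 1087240, 978210 and 146255 such miRNA reads, so library 4 was the shallowest. Intervals and limits of 3 reads, given below, cover counting error only.

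**Figure D1:**
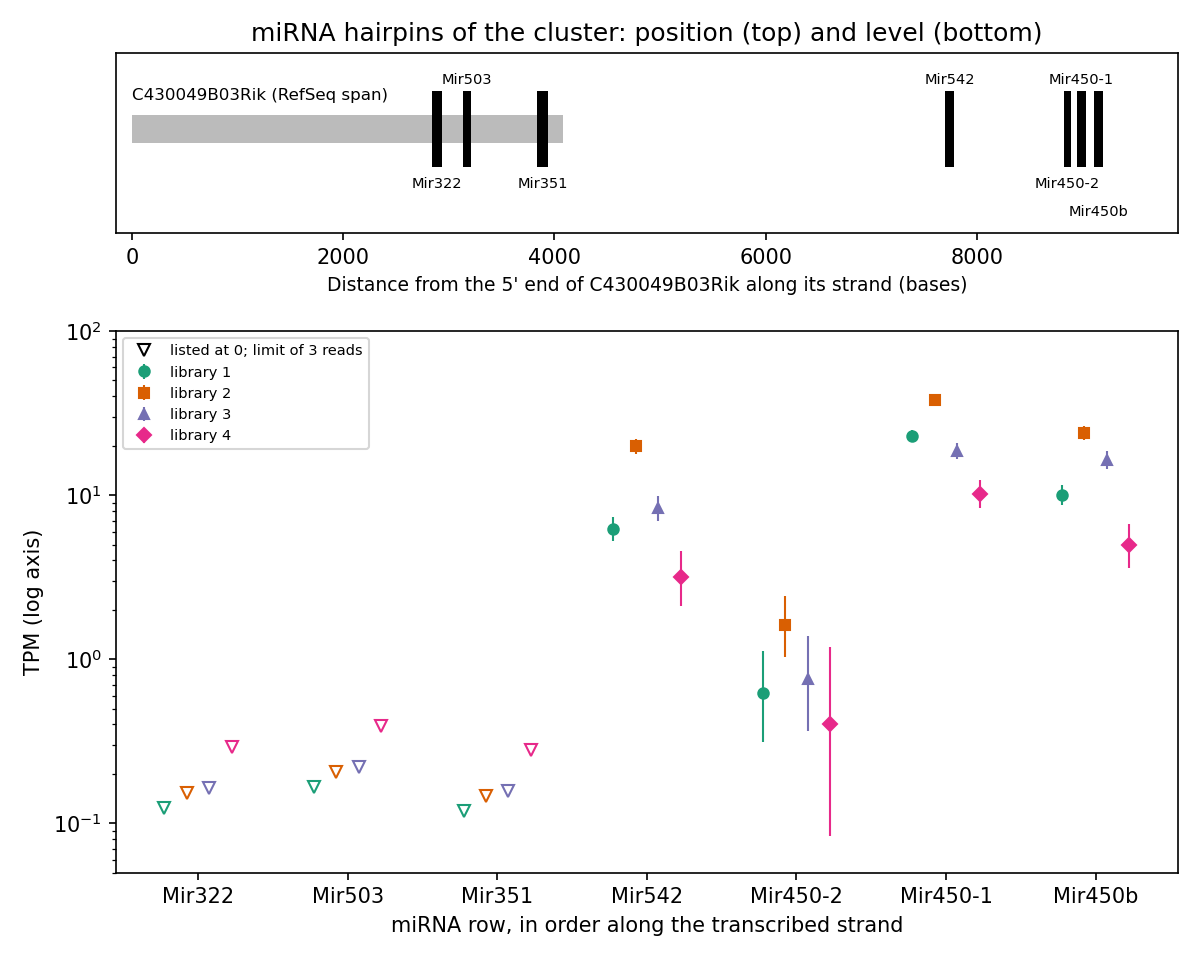
Top: hairpins (black) by distance in bases from the 5' end of C430049B03Rik, with its RefSeq span in grey. Bottom: TPM of each miRNA row in each library on a log axis, with exact 95% Poisson intervals of the recovered reads, and open triangles at the limit of 3 reads for rows listed at 0. The 3 hairpins inside the grey span are listed at 0 in every library, and all 4 beyond it are above 0.

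Only the hairpins beyond the long RNA had reads counted to their rows. Mir542, Mir450-1 and Mir450b reached at least 1 TPM in all 4 libraries, which is 3 of the 8 members and 3 of the 7 miRNA rows, beside 213 of all 643 miRNA rows (33.1%). Mir450-2 was above 0 in all libraries but reached 1 TPM only in library 2. The other 3 miRNA rows were listed at 0 in all libraries, as were 203 of the 643 miRNA rows (31.6%).

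Mir450-1, whose hairpin gives miR-450a-5p and miR-450a-1-3p, was the highest member. It had 22.9, 38.2, 18.6 and 10.2 TPM in libraries 1 to 4, from 533, 715, 325 and 100 reads, and averaged 22.5 ± 11.7 TPM (SD, n = 4). Library 2 was highest and library 4 lowest in TPM. As a share of miRNA TPM, library 4 was highest (0.0622%) and library 3 lowest (0.0302%). Among the 643 miRNA rows Mir450-1 ranked 128, 108, 143 and 116 in libraries 1 to 4.

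Mir450b, the last hairpin of the cluster, had 10.1, 24.0, 16.3 and 4.98 TPM in libraries 1 to 4, from 211, 404, 257 and 44 reads. Its mean was 13.8 ± 8.20 TPM (SD, n = 4). In TPM it was again highest in library 2 and lowest in library 4, but unlike Mir450-1 it was higher in library 3 than in library 1. As a share of miRNA TPM it was highest in library 2 (0.0366%) and lowest in library 1 (0.0237%).

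Mir542, the first hairpin beyond the long RNA, had 6.26, 19.8, 8.35 and 3.16 TPM in libraries 1 to 4, from 136, 346, 136 and 29 reads, with a mean of 9.39 ± 7.26 TPM (SD, n = 4), or 5.92 TPM without library 2. Libraries 1 and 3 had the same number of reads, and library 2 stood above both. Its mean placed it at rank 173 of 643 miRNA rows, against 130 for Mir450-1 and 151 for Mir450b.

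Mir450-2 lies between Mir542 and Mir450-1 and had 0.623, 1.62, 0.756 and 0.403 TPM in libraries 1 to 4, from 11, 23, 10 and 3 reads (mean 0.851 ± 0.534 TPM, SD, n = 4). In library 4 its 95% Poisson interval ran from 0.0832 to 1.18 TPM. The interval of library 2 began at 1.03 TPM, below the upper ends of 1.12 and 1.39 TPM in libraries 1 and 3 and that of library 4. The order of the libraries was therefore not resolved at this depth. The hairpins of both miR-450a genes and of Mir450b are given here because the split of reads between them depends on the strands in capitals, which are the mature strands.
Mir450-2: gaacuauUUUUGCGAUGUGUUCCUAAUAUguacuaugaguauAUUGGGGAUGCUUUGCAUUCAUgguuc
Mir450-1: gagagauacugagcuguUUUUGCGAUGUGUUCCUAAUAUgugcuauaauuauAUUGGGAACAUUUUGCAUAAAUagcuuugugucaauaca
Mir450b: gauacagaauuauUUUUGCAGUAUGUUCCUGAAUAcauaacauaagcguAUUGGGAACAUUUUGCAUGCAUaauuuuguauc

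Of the reads on the miR-450a genes together, Mir450-1 held 98.0%, 96.9%, 97.0% and 97.1% in libraries 1 to 4, with exact binomial 95% intervals that all overlap (91.7% to 99.4% in library 4, the widest). The sources used here do not give the treatment of reads that fit both genes, so the split between Mir450-1 and Mir450-2 is uncertain. The rows count whole precursors, and the 5p and 3p strands were not separated.

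Mir322, Mir503 and Mir351 had 0 counted reads in every library. A count of 0 allowed up to 0.123, 0.154, 0.165 and 0.293 TPM for Mir322 in libraries 1 to 4, up to 0.165, 0.206, 0.220 and 0.392 TPM for Mir503, and up to 0.118, 0.147, 0.158 and 0.281 TPM for Mir351. These limits hold only if reads of these hairpins were counted to their rows. Each of the 3 lies in the span of another row, C430049B03Rik, and reads that fit both features may have been left uncounted, so the listed 0 is not evidence that the miRNA was absent.

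Other rows were examined for the same arrangement. Of 68 miRNA rows that overlap the span of a long RNA row, these 3 included, 31 (45.6%) were listed at 0 in all libraries, against 160 of 563 miRNA rows (28.4%) that overlap no other row. Of 27 that overlap a GENCODE exon of a long RNA row on the same strand, 16 (59.3%) were listed at 0. Of 24 within such a span but in none of its GENCODE exons, where the 3 members fall, 5 (20.8%) were listed at 0, the 3 members among them. The rest of the 68 rows, and miRNA rows that overlap only another kind of row, are not broken down here. Overlap alone did not always go with a 0, since Mir541 and Mir100, which also overlap a long RNA row, averaged 1549 and 752 TPM.

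C430049B03Rik, the long RNA in whose span the first hairpins lie, is a spliced non-coding transcript with no protein product. It was listed at 0.0353, 0.0146, 0.00349 and 0.0589 TPM in libraries 1 to 4 (mean 0.0281 ± 0.0244 TPM, SD, n = 4, or 0.0178 TPM without library 4). These values correspond to 27, 9, 2 and 19 reads for a counted length of 2992 to 2994 bases, the only lengths within its span of 4079 bases that gave whole reads in all libraries. Libraries 4 and 1 had the highest values. The 95% Poisson interval of library 1, 0.0233 to 0.0513 TPM, still overlapped that of library 2, 0.00669 to 0.0278 TPM. With 2 reads, library 3 had a 95% Poisson interval of 0.000422 to 0.0126 TPM, which overlapped that of library 2.

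The counted length bears on the hairpins inside the span. GENCODE exons of C430049B03Rik cover 1610 bases and all lie upstream of Mir322, so they leave out the last 1934 bases of the RefSeq span, where all 3 hairpins lie. A counted length of at least 2992 bases means that at least 847 of those 1934 bases (43.8%) were counted as exon. The sources used here do not say whether that part includes the hairpins.

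In TPM, the long RNA and the miRNA rows ranked the libraries differently. Mir450-1, Mir450b and Mir542 were highest in library 2 and lowest in library 4, while C430049B03Rik was highest in library 4. Set against the miRNA TPM total, Mir450-1 was also highest in library 4 and lowest in library 3, as was C430049B03Rik. Mir450b and Mir542 stayed highest in library 2 on that scale. Rows other than miRNAs took 29.7% of the table's summed TPM in library 4, against 14.0%, 9.32% and 13.2% in libraries 1 to 3, and their part in the level of C430049B03Rik was not tested. The 1839 long RNA rows without Gas5 summed to 224, 190, 211 and 235 TPM in libraries 1 to 4, a narrower range than that of C430049B03Rik. A sum over many rows carries less relative counting error than a single row with few reads, so the ranges are not directly comparable.

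Summed over the 7 miRNA rows, the cluster had 39.8, 83.6, 44.1 and 18.7 TPM in libraries 1 to 4 (mean 46.6 ± 27.1 TPM, SD, n = 4), a range of 4.46-fold. Mir322, Mir503 and Mir351 enter this sum at 0, which may come from counting, so it rests on the other rows. As a share of all miRNA TPM the sum was 0.0938%, 0.128%, 0.0714% and 0.114%, a range of 1.79-fold. Library 4, lowest in TPM, was the second highest by share, and library 3 was lowest by share. The coefficient of variation of the sum was 58.1% in TPM and 24.1% as a share of miRNA TPM, and the total miRNA TPM that the share is taken from itself ran from 16399 in library 4 to 65478 in library 2. In sorted bulk samples, fewer cells that express the cluster and less of it per cell cannot be told apart.

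The order Mir450-1, Mir450b, Mir542, Mir450-2 held in every library. Per length and with 1 TPM added, Mir450-1 exceeded Mir450b by 1.11, 0.65, 0.18 and 0.91 log2 units in libraries 1 to 4 (mean 0.71 ± 0.40, SD, n = 4). In library 3 their Poisson intervals overlapped, at 16.7 to 20.8 TPM for Mir450-1 and 14.4 to 18.5 TPM for Mir450b, so counting error alone does not set them apart there.

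Mir450b exceeded Mir542 by 0.61, 0.26, 0.89 and 0.52 log2 units in libraries 1 to 4 (mean 0.57 ± 0.26, SD, n = 4). Their intervals overlapped in library 2, at 21.7 to 26.4 TPM for Mir450b and 17.8 to 22.0 TPM for Mir542, and in library 4, at 3.62 to 6.68 TPM for Mir450b and 2.12 to 4.55 TPM for Mir542. The widest step between neighbouring miRNA rows was Mir542 over Mir450-2, at 2.28 ± 0.59 log2 units (SD, n = 4). Its size depended on the scale, at 0.77 with 10 TPM added, 3.17 with 0.1 TPM added and 3.48 from recovered reads. Mir450-2 over C430049B03Rik was 0.81 ± 0.41 log2 units (SD, n = 4), a value set by the added 1 TPM, since both lie near or below it. Without division by length this last step turned to -0.10.

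Each of these 4 steps gave p = 0.13 in an exact permutation test (two-sided, flipping the signs of the log2 ratios; Benjamini-Hochberg adjusted p = 0.13 over the 4), the smallest that 4 libraries allow. A threshold of 0.05 was therefore out of reach. The direction was the same in 4 of 4 libraries for each step, but the members were put in order by their means over the same libraries, so that tally and these p-values are a description of the order and not independent evidence of it.

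**Figure D2:**
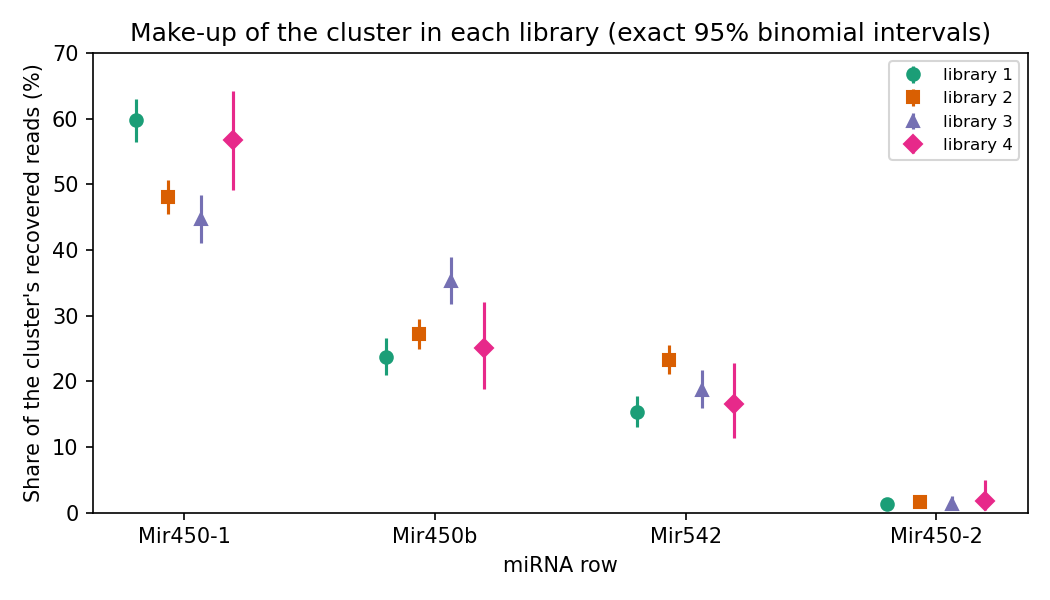
Share of the cluster's recovered reads in percent (vertical axis) held by each miRNA row (horizontal axis) in each library, with exact 95% binomial intervals. Mir450-1 holds the most reads in every library, from 44.6% in library 3 to 59.8% in library 1, and Mir450-2 holds under 2% in each.

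The make-up of the cluster was also read per library, with intervals that cover counting error only and not the variation that separate libraries carry. Shares are of reads counted to the member rows, so any uncounted reads of Mir322, Mir503 and Mir351 are left out. Mir450-1 held 59.8% of the cluster's reads in library 1 (exact binomial 95% interval 56.5% to 63.1%), 48.1% in library 2 (45.5% to 50.6%), 44.6% in library 3 (41.0% to 48.3%) and 56.8% in library 4 (49.2% to 64.2%). The interval of library 1 overlapped only that of library 4.

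Mir450b took 23.7%, 27.2% and 35.3% of the cluster's reads in libraries 1 to 3, and 44 of 176 reads in library 4. Library 3 was highest, and its interval of 31.8% to 38.9% overlapped that of library 4, at 18.8% to 32.1%, but not those of libraries 1 and 2. Mir542 took 15.3%, 23.3%, 18.7% and 16.5%, with library 2 highest. Its interval began at 21.1%, above the upper end of 17.8% in library 1. Mir450-2 stayed between 1.23% and 1.70%.

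Even so, ratios within the cluster varied less over libraries than most ratios between miRNA rows. For the 3 members that averaged 1 TPM or more, the SD over libraries of the log2 ratio was 0.26 between Mir542 and Mir450b, 0.36 between Mir542 and Mir450-1 and 0.40 between Mir450-1 and Mir450b. Over all 37128 pairs of the 273 miRNA rows with such a mean, the median SD was 0.92. Smaller values than those of the member pairs were found in 3.51%, 8.32% and 10.7% of all pairs. These shares describe these 4 libraries and are not tests.

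**Figure D3:**
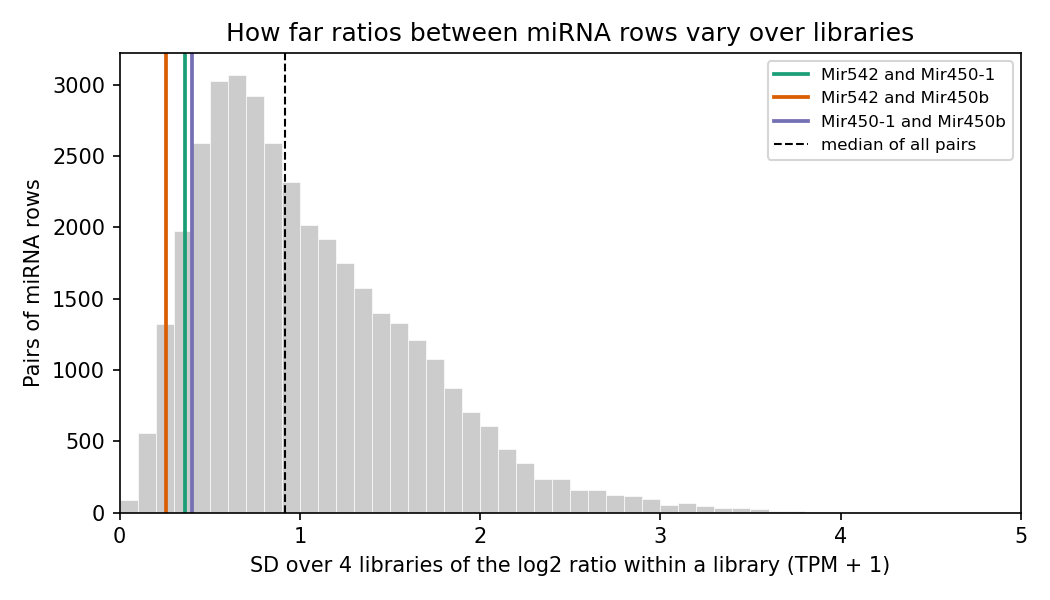
Number of pairs of miRNA rows (vertical axis) by the SD over 4 libraries of their log2 ratio within a library (horizontal axis, log2 units). The coloured lines mark the 3 member pairs at 0.26, 0.36 and 0.40, left of the median of all pairs at 0.92 (dashed).

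Rows outside the cluster were ranked by how closely their profile over the 4 libraries followed that of the cluster sum. The measure was the root mean square difference between log2 shares of the miRNA total, each centred over the libraries, over the 168 miRNA rows outside the cluster that averaged 10 TPM or more. The nearest were Mir330 at 0.10, Mir130b at 0.10, Mir27a at 0.14, Mir7b at 0.14 and Mir218-2 at 0.15 log2 units, all on autosomes, beside a median of 0.53 over the 168 rows. These names depend on the use of the sum, since 0 of the 5 rows nearest to Mir450-1 alone and 2 of the 5 nearest to Mir450b alone are among them. Mir542, Mir450-1 and Mir450b, which are part of the sum, were at 0.17, 0.18 and 0.19, and 6, 7 and 7 outside rows lay nearer than they did. A close profile over 4 libraries was therefore not particular to rows of the cluster.

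**Figure D4:**
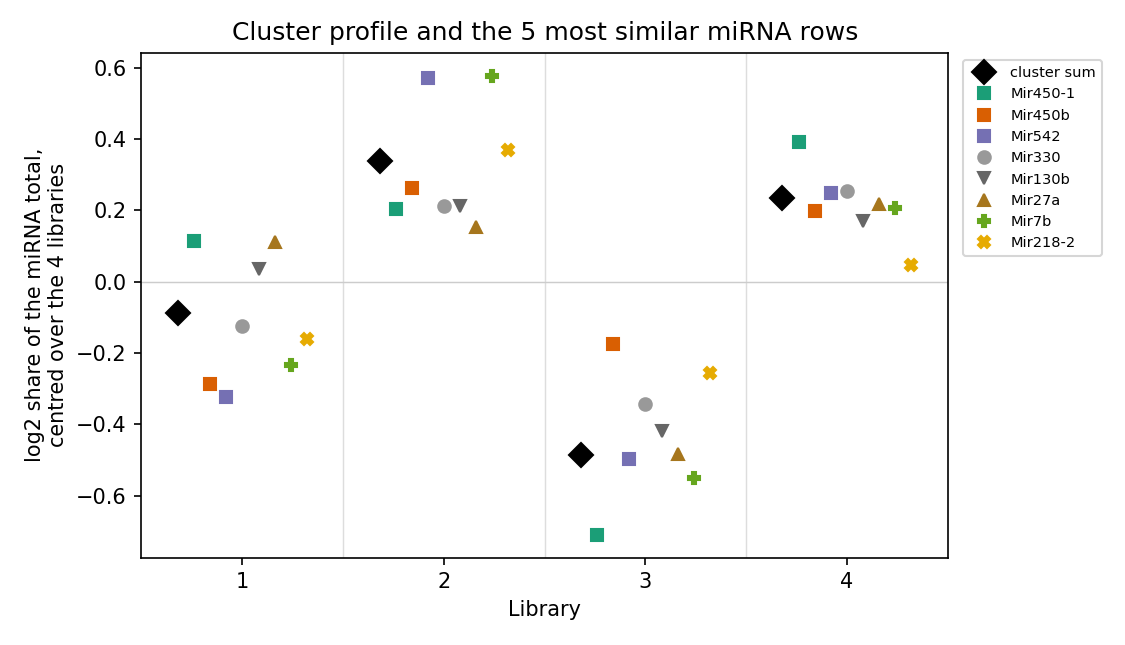
Log2 share of the miRNA total, centred over the 4 libraries (vertical axis), for each library (horizontal axis). The cluster sum (black diamonds), its 3 highest members (squares) and the 5 nearest outside rows (other symbols) are all below 0 in library 3 and above 0 in libraries 2 and 4.

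Reads were present on rows that share the seed of miR-322-5p or miR-351-5p. The miR-15/miR-16 rows, a family that restrains cell cycle progression, summed to 34.0, 55.7, 71.0 and 18.7 TPM in libraries 1 to 4 over 6 rows, of which 3 reached 1 TPM in all libraries, while Mir322 was listed at 0. They share only part of the seed of miR-503-5p, whose row was also at 0. Mir16-2 led at 17.3 ± 10.2 TPM, followed by Mir15b at 14.4 ± 10.6, Mir16-1 at 8.70 ± 4.08 and Mir15a at 2.03 ± 1.98 TPM (SD, n = 4). Copies of miR-16 share their mature strand, so the split between Mir16-1 and Mir16-2 is uncertain. Mir16-1 and Mir15a also overlap a long RNA row, so some of their reads may have been left uncounted. The shared seed of this family reads, in the most abundant row, as follows.
miR-16-5p: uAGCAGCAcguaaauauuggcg

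The miR-125 rows, which share the seed of miR-351-5p, summed to 3354, 2618, 963 and 375 TPM in libraries 1 to 4, while Mir351 was listed at 0. Mir125a averaged 1148 ± 837 TPM, Mir125b-1 663 ± 583 TPM and Mir125b-2 16.3 ± 11.0 TPM (SD, n = 4). Of these rows Mir125b-1 overlaps a long RNA row, so some of its reads may have been left uncounted. No ratio of the members to these relatives is given, because the members are listed at 0 and those 0 values may come from counting.

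The nearest other miRNA cluster on chromosome X, that of Mir106a, Mir18b, Mir20b, Mir19b-2, Mir92-2 and Mir363, belongs to the miR-17/miR-92 family of proliferation-linked miRNAs and ends 305429 bases from Mir450b. The 7 rows of the cluster summed to less than these 6 in every library, with log2 ratios of -4.42, -3.96, -5.67 and -4.50 in libraries 1 to 4 (mean -4.64 ± 0.73, SD, n = 4; lower in 4 of 4 libraries). The exact permutation test used above gave p = 0.13, again the smallest possible. Mir322, Mir503 and Mir351 enter the sum of 7 rows at 0, which may come from counting, so the size of the ratio is uncertain.

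Most of the neighbouring sum was Mir92-2, whose mature strand a copy on another chromosome shares. Without it, an alternative added once the values were known, the ratios were 0.89, -0.10, -3.24 and -1.91 in libraries 1 to 4 (mean -1.09 ± 1.84, SD, n = 4). The cluster was then above its neighbour in library 1, close to it in library 2 and below it in libraries 3 and 4. The neighbour rows without Mir92-2 summed to 21.0, 89.4, 424 and 73.1 TPM, a wider range than the 4.46-fold of the cluster sum.

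Markers of the sorted stroma and of other cells were read beside these levels. The stroma rows (Mir199a-1, Mir199b, Mir143 and Mir145a, with Mir199a-2 and Mir214 listed at 0) summed to between 331 and 2373 TPM, with 4 of 6 detected in all libraries. The 6 epithelial rows of the miR-200 family and Mir205 summed to between 43.5 and 157 TPM, with 5 detected. The endothelial Mir126a lay between 251 and 528 TPM, and the 6 striated muscle rows, with 2 detected and Mir1a-2 listed at 0, summed to between 122 and 342 TPM. Liver Mir122 lay between 23.5 and 144 TPM and the 6 neural rows summed to between 35.7 and 2890 TPM. Only 1 neural row was detected in all libraries, Mir9-3, which gave 2861 TPM of the highest sum, and Mir124a-1 was listed at 0. The 3 erythroid rows, with Mir486 at 0, summed to between 0.878 and 11.9 TPM, and the 3 white blood cell rows, with Mir223 at 0, to between 3.60 and 8.71 TPM, with 0 detected in all libraries in either list. Mir199a-2, Mir214, Mir124a-1 and Mir223 overlap a long RNA row, so their listed 0 may come from counting and is not evidence of absence. For Mir486 and Mir1a-2 overlap with rows of other kinds is not given here, so their listed 0 is not taken as absence either. As shares of miRNA TPM, the neural and erythroid sums were highest in library 3, at 4.68% and 0.0192%, where the share of the cluster was lowest. Library 4 differed in another way: its stroma share was the lowest of the 4 libraries, at 2.02%, against 2.34% in library 3 and up to 4.46%. Its shares of liver (0.875%), striated muscle (1.37%), endothelial (1.53%), epithelial (0.265%) and white blood cell rows (0.0220%) were the highest. The epithelial share was nearly as high in library 3, at 0.255%. The white blood cell share of library 4 rested on 18 reads of Mir142 and 7 of Mir155. The part of these cells in the share of the cluster was not tested.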

How the data were processed

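Small RNA of 4 libraries of sorted cells was sequenced as single reads of 75 bp after preparation with a small RNA kit, per the labels' protocols. The authors deposited TPM values, length-normalized and scaled to a constant library total, in 1 table with a row per Entrez gene. The submitters' processing notes name mm10, GRCm38 and limma. The sources used here do not give the aligner, counter, annotation, use of strand or handling of multi-mapping reads.

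Rows were joined by gene ID to RefSeq genes of GRCm38.p6, and 2541 of 2976 matched. Strand and exons came from GENCODE vM21. Reads were recovered as TPM times gene length divided by a constant per library, and in 20 of 20 simulated tables all 643 rows were recovered exactly. Log2 values have 1 TPM added, which understates differences of low rows. Neighbouring members in order of mean TPM, and the cluster sum against the rows of the cluster of Mir106a, were compared by exact two-sided sign-flip permutation tests of ratios within a library. Of 3 planned ratios of sums, 2 were not computed because the members were listed at 0. Named rows are the 8 members, their listed seed relatives, X-linked neighbours and cell markers, and the 5 outside rows nearest in profile; Mir541 and Mir100 were named after their values were seen. The members and lists were chosen with earlier results of these data known. Alternatives covered the added value, division by length, scaling, low rows and leaving out each library. Tools were scipy 1.17.1, numpy 2.4.6, pandas 2.3.3 and matplotlib 3.10.9 under Python 3.11.15.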

Additional observations from a re-analysis of the deposited data

How the results depend on the processing

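Of 88 values computed under alternatives, 78 kept their direction or stayed within the spread between libraries, 9 moved and 1 reversed. The step from Mir450-2 to C430049B03Rik reversed to -0.10 log2 units with recovered reads not divided by length. The mean log2 ratio of the cluster sum to the rows of the cluster of Mir106a stayed below 0 in all 10 alternatives. It was -4.86 to -4.29 when each library was left out in turn. Without Mir92-2 it was only -1.09, and the ratio in library 1 was above 0, at 0.89. The number of members detected was 3 with 1 TPM as the limit, beside 213 of all 643 miRNA rows (33.1%), and also 3 without any single library. It was 4 with 0.1 TPM and 1 with 10 TPM, limits at which the share over all miRNA rows is not given here. The median SD of log2 ratios within the cluster was 0.36, and 0.19 with 10 TPM added (0.67 for all pairs). It ranged over 0.23 to 0.43 when each library was left out, and the low end was without library 3. The coefficient of variation of the cluster sum was 58.1% in TPM and 24.1% as a share of miRNA TPM. The mean of the cluster sum ranged over 34.2 to 55.8 TPM with each library left out, lowest without library 2. No paired analysis was possible because the series has 1 group. Depth limits Mir450-2 and C430049B03Rik most, at 3 reads in library 4 and 2 reads in library 3.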

Other observations

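Among 77 miRNA rows on chromosome X, of which 25 reached 1 TPM in all 4 libraries, Mir450-1 ranked 13, Mir450b 14, Mir542 20 and Mir450-2 34 by mean TPM. The highest X-linked rows were Mir92-2, Mirlet7f-2, Mir363 and Mir676, at means of 1080, 178, 86.2 and 72.4 TPM. C430049B03Rik ranked 71 of 1840 long RNA rows by mean TPM, and 192 of those rows were above 0 in all 4 libraries.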
